A study of Mus musculus with 59 samples.

Results

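The comparison asked where the response of the lung to the high dose of benzo(b)fluoranthene (BbF) differed from that of the forestomach. It used 20 of the 59 arrays of the series: vehicle lung, high-dose lung, vehicle forestomach and high-dose forestomach, with 5 arrays in each of the 4 groups, and the quantity of interest was the high-dose effect in lung minus the high-dose effect in forestomach. The animals were adult male Muta™Mouse, a transgenic strain that carries a bacterial lacZ reporter for mutation assays in every group, controls included, and were about 16 weeks old. They received 100 mg BbF per kg body weight per day in olive oil, or olive oil alone, by oral gavage for 28 days, and tissues were taken 72 h after the last dose. Lung RNA came from random slices of the right lobe and forestomach RNA from random sections, and the same 10 mice gave both tissues. Mice 1 to 5 were the vehicle group and mice 16 to 20 the high-dose group. GEO's labels conflict over the agent: sample titles and dosing protocol give BbF, but benz(a)anthracene stands in the field for what the mice were exposed to and in the series design. BbF is used here because the dose levels match it.

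BbF is a polycyclic aromatic hydrocarbon. Compounds of this kind bind the aryl hydrocarbon receptor (AhR), which induces the cytochrome P450 enzymes Cyp1a1 and Cyp1b1. These enzymes turn part of the compound into reactive diol epoxides that form bulky DNA adducts, and p53 answers such damage by inducing genes of cell cycle arrest and apoptosis. The forestomach is a squamous epithelium that meets the gavaged dose directly, whereas the lung, an organ of capillary endothelium, alveolar and airway epithelium and resident immune cells, is reached through the blood.

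All values are log2 ratios of the sample over a universal mouse reference RNA, the common second channel of each array, and an effect is a difference of mean log2 ratios. Errors after ± are standard errors from the limma fit with n = 5 arrays per group unless an SD is named. A gene was called when its Benjamini-Hochberg adjusted p over all probes was at most 0.05 and its change at least 1.5-fold, and each gene was read from its brightest probe. Values by array are in the order of mice 1 to 5 (vehicle) and 16 to 20 (high dose). The share of probes well above background was 44.8% to 49.7% in the vehicle group and 48.3% to 52.7% in the high-dose group in lung, and in forestomach it was 39.6% to 47.5% and 44.2% to 52.0%. Its part in the results was not tested. The number of arrays limits the precision.

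The tissue labels held. Sftpc, the surfactant protein of alveolar type II cells, lay at 6.84 to 7.56 in lung and at -0.13 to 0.34 in forestomach, where it was not well above background. Ager, a marker of alveolar type I cells, lay at 5.21 to 5.88 in lung and was not well above background on any forestomach array. The squamous keratins Krt4 and Krt13 lay at 6.04 to 6.97 and 4.87 to 5.43 in forestomach, and at -0.1 to 0.21 and -2.16 to -1.27 in lung. Scgb1a1, the club cell secretory protein, was high in lung (7.86 to 8.41) but was also above background on every forestomach array (4.91 to 5.46). Markers of the glandular stomach, the tissue next to the forestomach, varied among forestomach arrays. The mean log2 ratio of its 8 markers ran from 0.91 (mouse 2) to 6.04 (mouse 1) in the vehicle group and from 0.59 (mouse 20) to 5.74 (mouse 16) in the high-dose group, and none of the 8 was called, though the list median in forestomach was 0.58. Heart muscle markers varied likewise in lung, from 0.1 to 3.88 in the vehicle group and 0.15 to 3.9 in the high-dose group, and none of the 6 passed. In tissue pieces like these, fewer cells of a type and less RNA per cell cannot be told apart.

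The promoter stretches shown here belong to genes of the results that held the marked motif. They are the AhR target that passed the test between the tissues and the cell cycle inhibitor among the p53 targets. The last is a clock gene that rose in both tissues. Each stretch is the 250 bases before a RefSeq transcript start on mouse GRCm38.p6, printed 5′ to 3′ in the direction of transcription.
Ahrr (chr13:74292332-74292581, minus strand; capitals mark the AhR core motif GCGTG): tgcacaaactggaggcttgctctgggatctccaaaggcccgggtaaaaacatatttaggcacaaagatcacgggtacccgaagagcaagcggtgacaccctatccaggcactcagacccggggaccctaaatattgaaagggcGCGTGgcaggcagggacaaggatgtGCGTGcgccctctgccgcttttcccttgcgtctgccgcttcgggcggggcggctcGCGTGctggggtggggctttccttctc
Cdkn1a (chr17:29090729-29090978, plus strand, first of 2 listed starts; capitals mark matches to the p53 half-site): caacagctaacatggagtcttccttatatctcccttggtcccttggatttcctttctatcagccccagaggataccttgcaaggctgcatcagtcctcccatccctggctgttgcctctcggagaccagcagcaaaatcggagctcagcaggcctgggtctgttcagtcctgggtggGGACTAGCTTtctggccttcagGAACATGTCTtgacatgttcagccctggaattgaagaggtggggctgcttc
Tef (chr15:81802423-81802672, plus strand, first of 2 listed starts; capitals mark the E-box CACGTG): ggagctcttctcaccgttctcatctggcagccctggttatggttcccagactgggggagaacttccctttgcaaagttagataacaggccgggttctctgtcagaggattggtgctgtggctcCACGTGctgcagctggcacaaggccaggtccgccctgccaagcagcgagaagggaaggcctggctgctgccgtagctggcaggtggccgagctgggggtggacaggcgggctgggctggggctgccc

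Searched on both strands in all 32851 stretches of this length, the core GCGTG was found in 28.2%, the p53 half-site in 7.13% and the E-box in 6.02%; none of these motifs overlapped another in the stretches shown. Ahrr held 3 cores, and apart from them 1 match to the p53 half-site, and Cdkn1a held 2 half-sites in the stretch shown. The other listed start of Cdkn1a held no half-site, but 1 AhR core. Of the AhR list, 4 of the 7 genes with a stretch held the core (Cyp1a1, Cyp1b1, Ahrr and Tiparp). Of the p53 lists, 3 of 8 arrest and feedback genes (Cdkn1a, Mdm2 and Ccng1) and 2 of 5 apoptosis genes (Bax and Aen) held a half-site in at least 1 listed start, and 4 of 10 clock output genes held an E-box. Among genes not shown, the stretches of the clock genes Dbp and Nr1d2 held no E-box, and those of Gdf15 and Phlda3 no p53 half-site. A match is a description of the letters and not a shown binding site.

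The high dose changed 639 genes in lung and 131 in forestomach. Of the 37163 genes and transcripts tested, 460 rose in lung (1.24%) and 179 fell (0.482%), whereas 99 rose in forestomach (0.266%) and 32 fell (0.0861%). The difference between the tissues was itself called for 401 genes, 254 with an effect higher in lung (0.683%) and 147 with an effect higher in forestomach (0.396%). Most of the first group were genes that rose in lung alone (182 genes) and most of the second that were called in a tissue by itself were genes that fell in lung alone (56) or rose in forestomach alone (37). Another 60 and 53 genes passed the test of the difference but were called in neither tissue by itself. Of the 639 genes changed in lung, 399 did not pass the test of the difference, so that a call in lung without a call in forestomach was not by itself a difference.

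Where the forestomach made no call, the data often bounded its response. Of the 238 genes that differed and changed in lung alone, 195 had a forestomach effect whose 95% interval lay wholly within 1.5-fold of no change; of the 190 that were well above background in forestomach, 151 did. For 28 the probe was well above background on no forestomach array, so that the absence of a change there is not a measurement. In the other direction, 48 genes differed and changed in forestomach alone, and 42 had a lung effect bounded in this way. These included 24 of the 29 that were well above background in lung, and 16 of the 48 were above background on no lung array. The bounds are for each gene by itself. The share of all genes bounded in this way was not computed, so that the counts do not set these genes apart. Opposite effects, with both 95% intervals excluding 0, were found for 101 of the 401 genes, of which 46 went up in lung and 55 up in forestomach. The intervals were not adjusted for the number of genes, and the 401 were chosen for unequal effects, which favours opposite signs. By the calls within each tissue, 1 gene changed in opposite directions. Subtracting the tissues within each mouse, the high-dose mice lay wholly beyond the vehicle mice, in the direction called, for 354 of the 401 genes, against 3.38% of all genes in either direction. Both doses were present on each of the 3 slides of each tissue. For 394 of the 401 genes every within-slide lung effect lay on the called side of every within-slide forestomach effect. The genes were called from these same arrays, so that this count was largely set by their choice. The share over all genes was not computed.

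**Figure D1:**
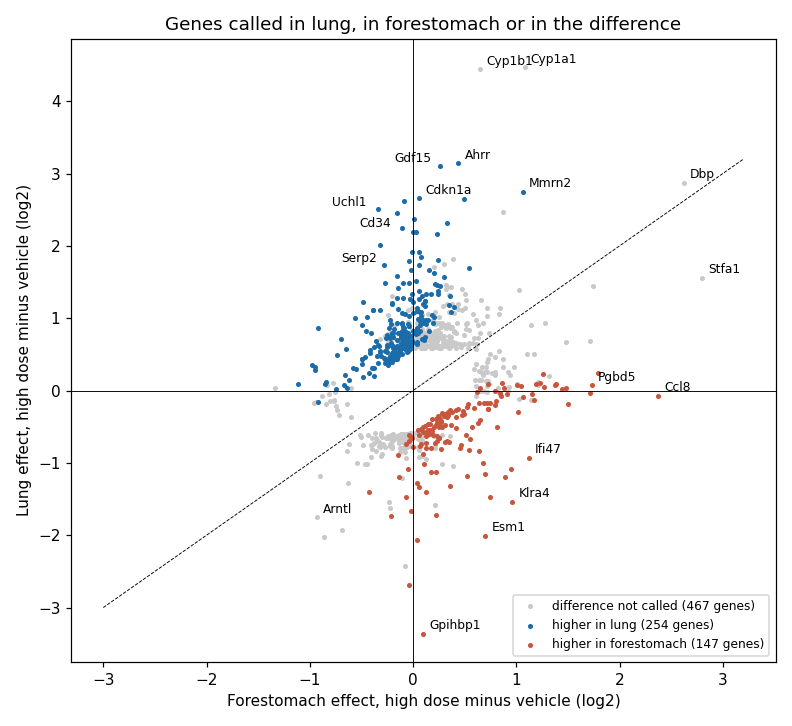
Each point is a gene called in lung, in forestomach or in the difference; the x axis is the forestomach effect and the y axis the lung effect (high dose minus vehicle, log2), blue marks the 254 genes higher in lung, red the 147 higher in forestomach and grey the 467 whose difference was not called, and the dashed line marks equal effects. The blue points rise along the lung axis near a forestomach effect of 0 (Gdf15, Cdkn1a), the red points hold both falls in lung (Gpihbp1) and rises in forestomach (Ccl8), and Dbp lies near the dashed line.

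These counts depended on single mice and on the scaling. Without high-dose mouse 17 the difference was called for 226 genes and without high-dose mouse 19 for 267. Median centring in place of loess called 207 genes higher in lung and 36 higher in forestomach, which put 85.2% of the calls on the lung side. The 401 genes, called from these same arrays, kept their direction.

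Targets of p53 rose in lung, and most of those that rose differed from forestomach. Of 10 genes of arrest and feedback, 9 rose in lung and 1 in forestomach, and 6 passed the test of the difference, all higher in lung. Of 8 apoptosis genes, 3 rose in lung, none in forestomach, and the same number passed the test of the difference, again higher in lung. The median effect of the arrest list was 1.23 in lung and 0.19 in forestomach, and that of the apoptosis list 0.33 and 0.17, beside medians of 0 over all genes in both tissues. The mean of the arrest list per forestomach array was -0.45 to -0.28 in the vehicle group and -0.26 to -0.07 at the high dose. That of the apoptosis list was -0.01 to 0.07 and 0.24 to 0.43. Both lists thus had a small forestomach rise without overlap of the arrays, although few of their genes were called there. In lung the arrest list ran from -0.47 to -0.35 and from 0.62 to 1.17. The lists were known to respond when they were chosen.

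Cdkn1a, which encodes the cell cycle inhibitor p21, measured -1.04, -0.99, -1.04, -1.5 and -0.21 on the vehicle arrays and 1.59, 1.91, 1.18, 1.76 and 2.11 on the high-dose arrays in lung. Its forestomach values were 1.04, 1.41, 0.39, 1.02 and 0.87 on the vehicle arrays and 1.13, 1.06, 1.15, 0.87 and 0.84 on the high-dose arrays. In lung every high-dose array lay above every vehicle array, whereas the forestomach groups overlapped. The lung effect was 2.66 ± 0.2, a 6.32-fold rise, the forestomach effect 0.06 ± 0.2 (95% interval -0.36 to 0.48), and the difference 2.6 ± 0.29 (adjusted p = 4.39e-05). In the vehicle mice Cdkn1a was lower in lung than in forestomach, by 1.08 to 2.52, and in the high-dose mice it was higher in lung, by 0.03 to 1.28. Its other probe gave a difference of 2.54, but was above background on 1 of 5 vehicle lungs, 0 of 5 vehicle forestomachs and 3 of 5 high-dose forestomachs.

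Gdf15, a stress-induced cytokine of the TGF-beta family, measured -2.78, -2.23, -2.28, -2.56 and -2.04 on the vehicle arrays and 1.16, 1.06, -0.5, 0.45 and 1.45 on the high-dose arrays in lung. In forestomach it stayed between -3 and -2.15 on all 10 arrays. The lung rise was 8.57-fold (3.1 ± 0.25) and the forestomach effect 0.26 ± 0.25, with a difference of 2.84 ± 0.36 (adjusted p = 0.00019). Phlda3, an inhibitor of Akt, rose by 1.91 ± 0.17 in lung and had an effect of -0.01 ± 0.17 in forestomach. Aen, an apoptosis-enhancing nuclease, Bax, the pore-forming protein of mitochondrial apoptosis, and the death receptor gene Tnfrsf10b rose by 1.51, 1.44 and 1.57 in lung, beside forestomach effects of 0.03, 0.26 and 0.3. Ccng1 (cyclin G1), the RNA-binding protein gene Zmat3 and the stress gene Sesn2 completed the genes that differed, with differences of 1.26, 0.96 and 1.28; per-mouse values of Sesn2 overlapped between the doses.

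Not all p53 targets separated the tissues. Trp53inp1, which promotes p53-dependent apoptosis and autophagy, rose in both, by 1.14 ± 0.18 in lung and 0.84 ± 0.18 in forestomach; its other probe gave 0.43 and 0.34. Mdm2, the ubiquitin ligase that returns p53 to its resting level, and Plk2, a stress-responsive kinase, rose in lung (0.64 and 0.79), but their differences from forestomach (0.47 ± 0.13 and 0.56 ± 0.24) did not pass. Btg2, Fas and Perp were called in neither tissue, nor were Bbc3 (0.26 in lung; 0.54 in forestomach with an adjusted p of 0.0122, below the fold threshold) and Pmaip1 (0.22 and 0.87), the genes of the BH3-only proteins Puma and Noxa. Among 11 excision repair and translesion genes only Polk, a polymerase that copies past bulky adducts, was called, by 0.74 ± 0.1 in lung beside 0.37 ± 0.1 in forestomach, and the difference did not pass. No gene of the mitosis list (18) or of the DNA replication list (12) was called in either tissue or in the difference; at an adjusted p alone, Pcna reached 0.0245 in lung with an effect of 0.42.

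**Figure D2:**
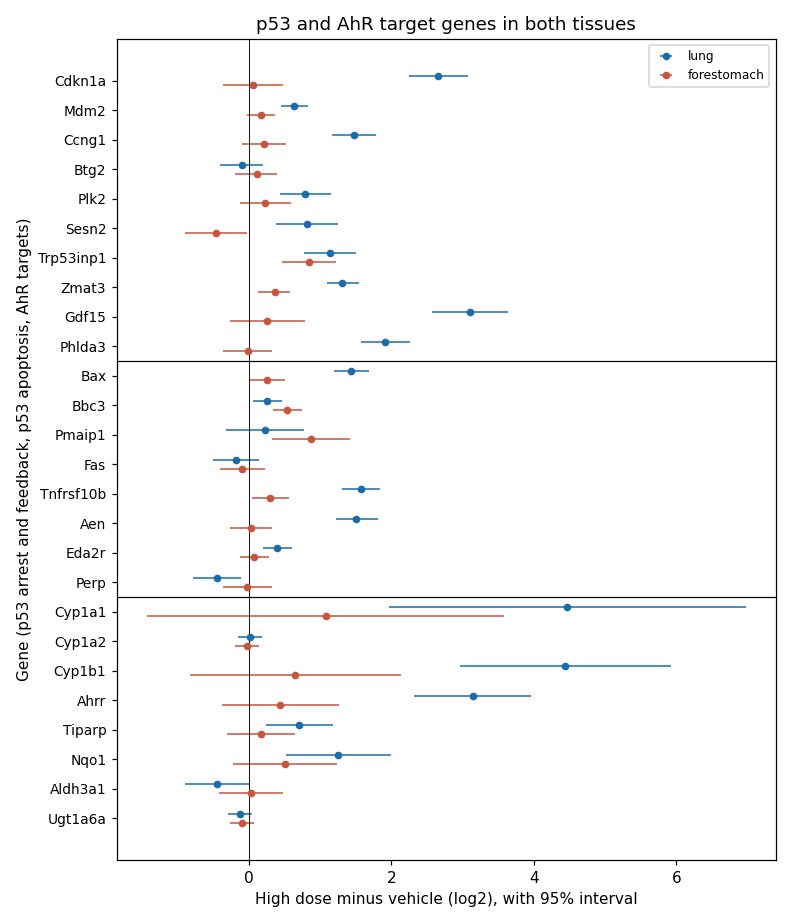
Effect of the high dose (log2, x axis) with its 95% interval for each gene of the p53 arrest, p53 apoptosis and AhR lists, lung in blue and forestomach in red. The intervals of Cdkn1a, Gdf15, Phlda3, Bax, Tnfrsf10b and Aen do not overlap between the tissues, and those of Cyp1a1 are the widest.

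The AhR targets rose in lung, but high-dose mice differed widely from each other. Of the 8 genes, 4 rose in lung, none was called in forestomach, and 1, Ahrr, passed the test of the difference. Ahrr, the receptor's own repressor, measured -0.52, -0.14, -0.54, -0.46 and -0.51 on the vehicle arrays and 1.56, 3.34, 1.12, 3.58 and 3.94 on the high-dose arrays in lung, and it was well above background on 1 of the 5 vehicle arrays. The forestomach values were 0.11, 0.45, 0.58, 0.24 and 0.18 on the vehicle arrays and 0.15, 1.12, 0.27, 0.8 and 1.41 on the high-dose arrays. Mice 17, 19 and 20 were the highest in both tissues. The lung effect was 3.14 ± 0.39, the forestomach effect 0.44 ± 0.39 and the difference 2.7 ± 0.56 (adjusted p = 0.0163). The call was lost when vehicle mouse 3, high-dose mouse 17 or high-dose mouse 19 was left out. A dimmer second probe, above background on 2 of the 20 arrays, gave a difference of 0.32.

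Cyp1b1 measured -1.39, 0.21, -1.53, -1.28 and -1.6 on the vehicle arrays and 1.03, 4.95, 0.67, 4.96 and 5.01 on the high-dose arrays in lung and -0.52, 0.66, -0.06, -0.02 and -0.03 on the vehicle arrays and -0.18, 0.68, 0.1, 0.73 and 1.96 on the high-dose arrays in forestomach. Lung minus forestomach was -0.87, -0.45, -1.46, -1.26 and -1.57 in the vehicle mice and 1.21, 4.27, 0.58, 4.24 and 3.05 in the high-dose mice, without overlap, and the difference of effects was 3.79 ± 1.01, with an adjusted p of 0.0748 that missed the threshold. It passed when high-dose mouse 16 or mouse 18, the lowest in lung, was left out (4.32 without mouse 18), with mouse as a fixed block, under both filters on dim probes and with all doses in 1 fit, but not with mouse as a random block. Cyp1a1 measured 2.97, 8.39, 2.06, 2.81 and 2.64 on the vehicle arrays and 7.54, 8.94, 5.99, 9.36 and 9.38 on the high-dose arrays in lung, where vehicle mouse 2 stood among the high-dose mice. In forestomach it measured 1.85, 4.39, 1.15, 0.36 and 1.73 on the vehicle arrays and 0.74, 3.18, 0.49, 3.13 and 7.33 on the high-dose arrays, where mouse 2 was again the highest of its group and mouse 20 the highest of all. The lung rise was called (4.47 ± 1.2), and the difference of 3.39 ± 1.7 was not (adjusted p = 0.474). Nqo1, a quinone reductase, rose in lung (1.25 ± 0.35), and its difference was 0.74 ± 0.5. Cyp1a2 was above background on no array. None of the 10 genes of the NRF2 list was called in either tissue. That list did not hold Nqo1, Ephx1 or Gstm1, which were counted in other lists, so that it does not cover every NRF2 target.

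Among 11 phase II enzymes, which conjugate or hydrate reactive products, the tissues diverged at a pair of genes. Ephx1, the microsomal epoxide hydrolase that acts on the epoxides made by Cyp1 enzymes, rose in lung (0.98 ± 0.11) beside 0.1 ± 0.11 in forestomach, a difference of 0.87 ± 0.15 (adjusted p = 0.00409). Gstm1, a glutathione transferase, went the other way, with -0.41 ± 0.14 in lung and a rise of 0.65 ± 0.14 in forestomach (difference -1.06 ± 0.2, adjusted p = 0.00843). Of the effects, 10 of 11 were above 0 in forestomach against 3 in lung, and the list medians were 0.41 and -0.1. Probes of the Gstm family may share sequence, and Gstm2 had a difference of -0.51 that did not pass. No gene of the Cyp2, Cyp3, Cyp4 and Fmo list was called.

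Some genes of blood vessels formed the next part of the lung response. The endothelial list held 16 genes, of which 6 rose and 1 fell in lung, 1 rose in forestomach, and 5 passed the test of the difference, 4 of them higher in lung. The list medians were 0.22 in lung and 0.16 in forestomach. The mean of the list per array was 3.82 to 4.18 in vehicle and 4.13 to 4.54 in high-dose lung, which overlapped. In forestomach it was 1.02 to 1.15 and 1.24 to 1.36, without overlap. The list as a whole thus shifted little and not in lung alone. Mmrn2, an endothelial extracellular matrix protein, measured 5.86, 5.56, 5.55, 5.71 and 5.8 on the vehicle arrays and 8.46, 8.56, 7.58, 8.72 and 8.9 on the high-dose arrays in lung and 3.33, 3.64, 3.54, 3.61 and 3.89 on the vehicle arrays and 4.24, 4.73, 4.55, 4.86 and 4.93 on the high-dose arrays in forestomach. It rose in both tissues, without overlap of the groups, by 2.75 ± 0.18 and 1.06 ± 0.18, and more in lung, by 1.69 ± 0.26 (adjusted p = 0.00125). Emcn, an endothelial sialomucin, rose in lung by 1.81 ± 0.2 beside 0.24 ± 0.2 in forestomach. Pecam1 and Egfl7 rose in lung by 0.74 and 0.82, with forestomach effects of -0.04 and 0.07. Cdh5 and Sox17 rose in lung without a called difference. Kdr, Flt1, Tek, Tie1 and Cldn5 were called in neither tissue.

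Cd34, the sialomucin of endothelium and of progenitor cells, measured 0.41, 0.64, 0.39, 0.82 and 0.41 on the vehicle arrays and 3.1, 3.16, 2.55, 2.86 and 3.24 on the high-dose arrays in lung. In forestomach it measured -0.74, -0.37, -0.46, -0.7 and -0.02 on the vehicle arrays and -1.24, -0.64, -0.33, -0.93 and 0.06 on the high-dose arrays. The groups were wholly apart in lung and overlapped in forestomach, and the difference was 2.61 ± 0.27 (adjusted p = 3.59e-05; the other probe gave 1.6). Ackr3, a scavenging receptor for the chemokine Cxcl12, rose in lung by 2.62 ± 0.25, 6.15-fold, beside -0.09 ± 0.25 in forestomach. Sema3c, a secreted guidance factor of vascular development, rose by 2.37 ± 0.2 beside 0.01 ± 0.2, and its other probe gave 1.61 beside -0.37. Uchl1, a ubiquitin hydrolase best known from neurons and neuroendocrine cells, had the largest called difference among the named genes that rose in lung, 2.85 ± 0.29 (adjusted p = 2.47e-05). It measured 0.41, 0.3, 0.53, 0.5 and 0.97 on the vehicle arrays and 2.89, 3.15, 2.27, 3.46 and 3.51 on the high-dose arrays in lung and 1.65, 1.68, 1.91, 1.25 and 1.56 on the vehicle arrays and 1.4, 1.47, 1.53, 1.31 and 0.62 on the high-dose arrays in forestomach. Vehicle lung lay below vehicle forestomach and high-dose lung above high-dose forestomach in every mouse. H1f2, a linker histone gene, rose by 2.01 ± 0.18 beside -0.32 ± 0.18; probes of the histone families may share sequence.

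The lung falls were led by Gpihbp1, the capillary protein that anchors lipoprotein lipase. It measured 6.18, 6.15, 5.88, 5.97 and 6.65 on the vehicle arrays and 3.51, 1.84, 3.98, 3.06 and 1.64 on the high-dose arrays in lung and 1.28, 1.09, 1.47, 1.06 and 1.45 on the vehicle arrays and 1.51, 1.12, 1.38, 1.39 and 1.43 on the high-dose arrays in forestomach. The lung effect was -3.36 ± 0.31, a 10.3-fold fall and the largest difference from forestomach in size among the genes with a RefSeq symbol called (-3.46 ± 0.43, adjusted p = 0.00019), while the forestomach interval was -0.54 to 0.74. The high-dose lungs spread from 1.64 to 3.98, with mice 17 and 20 lowest. The rest of the capillary lipid list had no called difference. Fabp5 fell in lung by 0.8, and Lpl, Cd36, Fabp4 and Angptl4 were called in neither tissue. Of the 6 lung effects of the list 0 were above 0, and the medians were -0.63 in lung and -0.13 in forestomach. The list mean, which includes Gpihbp1, was 2.36 to 3.18 in vehicle and 1.38 to 2.3 in high-dose lung, without overlap.

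Esm1, a proteoglycan of activated endothelium, measured 3.46, 2.67, 2.59, 1.87 and 2.63 on the vehicle arrays and 0.82, 0.54, 0.93, 1.12 and -0.26 on the high-dose arrays in lung and -0.76, -2.52, -1.69, -1.36 and -2.49 on the vehicle arrays and -0.52, -1.6, -1.12, -0.81 and -1.28 on the high-dose arrays in forestomach. It fell in lung (effect -2.01 ± 0.33), and the forestomach effect was 0.7 ± 0.33 (95% interval 0.02 to 1.38, not called), with a difference of -2.71 ± 0.46. The forestomach groups overlapped. Ednrb, the endothelin B receptor, fell in lung (-1.72 ± 0.17) beside 0.22 ± 0.17 in forestomach. Its other probe gave a difference of -1.34 that did not pass. Car14, a membrane carbonic anhydrase, fell as well (-2.07 ± 0.19 beside 0.04 ± 0.19), and so did Fibin, a secreted developmental factor, with -1.32 ± 0.21 beside 0.36 ± 0.21. Cx3cl1, the membrane-bound chemokine fractalkine, had effects of -1.18 ± 0.23 in lung and 0.52 ± 0.23 in forestomach, with a difference of -1.7 ± 0.33 that lost its call without high-dose mouse 17 and under median centring.

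**Figure D3:**
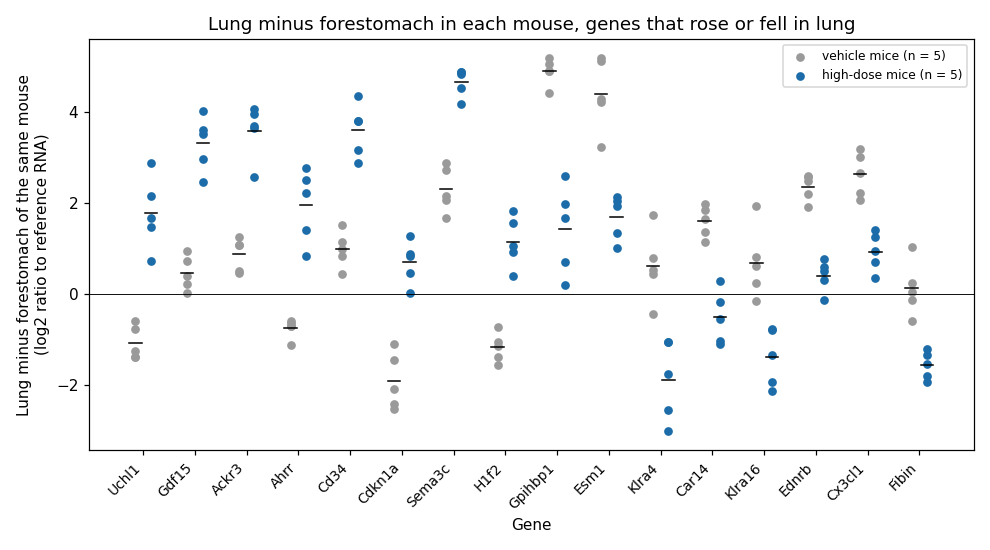
Lung minus forestomach of the same mouse (log2 ratio to the reference, y axis) for the 8 genes that rose and the 8 that fell in lung with the largest differences; grey points are the 5 vehicle mice, blue points the 5 high-dose mice and black lines the means. No gene has overlapping mice between the doses, as the choice of these genes required, and Cdkn1a, Uchl1, H1f2 and Ahrr cross from below 0 to above 0.

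Serp2, a gene of the stress-associated endoplasmic reticulum protein family, rose in lung with a forestomach effect below 0, and had the smallest adjusted p of the named genes (7.68e-07). It measured -0.67, -0.71, -0.4, -0.62 and -0.64 on the vehicle arrays and 1.12, 1.32, 0.76, 1.16 and 1.32 on the high-dose arrays in lung and -0.38, -0.5, 0.01, -0.43 and -0.16 on the vehicle arrays and -0.81, -0.52, -0.44, -0.5 and -0.59 on the high-dose arrays in forestomach. The lung rise was 1.74 ± 0.11, the forestomach effect, which was not called and whose groups overlapped, -0.28 ± 0.11 (95% interval -0.52 to -0.05), and the difference 2.03 ± 0.16. Slc36a2, a proton-coupled amino acid transporter, had effects of 0.86 ± 0.3 and -0.92 ± 0.3, called in neither tissue alone; its vehicle forestomach values ran from 0.25 to 2.5, with mouse 5 (2.5) and mouse 3 (1.58) highest, and the call was lost without mouse 2, 3, 16, 17, 19 or 20 and with slide as a block. The mean log2 ratio of the 6 adipocyte markers was also highest in these vehicle forestomachs, 4.58 in mouse 5 and 3.72 in mouse 3 against -0.04 to 0.71 in the other vehicle mice and 0.33 to 2.09 at the high dose. All 6 adipocyte markers had forestomach effects below 0 (median -1.18), none called, and their part in the Slc36a2 result was not tested. Ifi47, an interferon-inducible GTPase, measured 2.72, 3.14, 3.06, 3.8 and 2.89 on the vehicle arrays and 2.21, 1.91, 2.25, 2.72 and 1.88 on the high-dose arrays in lung and -0.48, -1.41, -0.46, -0.32 and -0.81 on the vehicle arrays and 0.02, -0.13, 0.13, 1.88 and 0.22 on the high-dose arrays in forestomach. The effects were -0.93 ± 0.3 and 1.12 ± 0.3, neither called, and the difference was -2.05 ± 0.43 (adjusted p = 0.0174), a call that was lost in the fit of all doses (adjusted p = 0.0718). Mouse 19 stood above the other high-dose forestomachs.

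Klra4 and Klra16, inhibitory or activating lectin receptors of natural killer cells, fell in lung (-1.54 ± 0.31 and -1.19 ± 0.26) and had forestomach effects of 0.96 ± 0.31 (95% interval 0.32 to 1.6) and 0.89 ± 0.26 (0.34 to 1.43). Their differences were -2.49 ± 0.44 and -2.08 ± 0.37. Lung minus forestomach for Klra4 was 0.79, 0.44, -0.44, 1.75 and 0.53 in the vehicle mice and -1.04, -2.54, -1.05, -1.75 and -3.01 in the high-dose mice. The Klra genes are near-identical copies, so their probes may measure each other, and the other 2 probes of Klra16, which were dim, gave differences of -0.39 and -0.08. Slc16a9, a monocarboxylate transporter, was the only gene called in opposite directions in the tissues (-0.83 ± 0.14 in lung, 0.64 ± 0.14 in forestomach); it lay outside the naming rule for its size and was picked after its values were seen.

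Among genes called in forestomach and not in lung, Ccl8, a chemokine that attracts monocytes and lymphocytes, had the largest difference of those named. It measured 1.01, 0.34, 1.42, 2.28 and 1.05 on the vehicle arrays and 2.92, 2.85, 3.99, 3.92 and 4.25 on the high-dose arrays in forestomach and 0.34, 2.01, 0.96, 2.17 and 0.91 on the vehicle arrays and 0.79, 0.86, 1.35, 0.52 and 2.54 on the high-dose arrays in lung. The forestomach groups were apart and the lung groups overlapped. The rise was 2.37 ± 0.41, 5.17-fold, the lung effect -0.07 ± 0.41 (95% interval -0.92 to 0.79) and the difference -2.43 ± 0.58 (adjusted p = 0.0434). The call was lost without mouse 2, 3, 5, 16, 17, 18 or 19, in the fit of all doses and under median centring.

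Several genes known from antigen-presenting cells also rose in forestomach. Ctsh (cathepsin H, a lysosomal protease) rose in forestomach by 1.27 ± 0.17 and Clec4n, the fungal receptor Dectin-2 of macrophages and dendritic cells, by 1.38 ± 0.18, with lung effects of 0.05 ± 0.17 and 0.09 ± 0.18. Ctsh measured 3.26, 2.25, 2.17, 2.47 and 2.03 on the vehicle arrays and 3.83, 3.43, 3.81, 3.86 and 3.58 on the high-dose arrays in forestomach, without overlap. Ctss, the cathepsin that trims the invariant chain of MHC class II, rose by 1.02 ± 0.21 beside -0.29 ± 0.21 in lung, and its difference (-1.31 ± 0.3) lost its call without mouse 2, 3, 5, 18, 19 or 20. Under median centring Ctsh, Clec4n and Ctss all lost their calls, with differences of -0.95 for Ctsh and -0.6 for Clec4n. Of 10 MHC class II genes, 3 rose in forestomach and none in lung: Cd74, the invariant chain (1.32 ± 0.2 beside 0.2 ± 0.2), H2-Aa (1.14 ± 0.25 beside -0.13 ± 0.25) and H2-DMb1 (1.01 ± 0.16 beside 0.08 ± 0.16). The difference was called for H2-DMb1 alone (-0.92 ± 0.22, adjusted p = 0.044); Cd74 and H2-Aa missed it with -1.12 ± 0.29 and -1.27 ± 0.35. Macrophage genes of the fixed list were not called in forestomach (Adgre1 0.64 ± 0.19, Csf1r 0.26 ± 0.13). The mean glandular stomach level was above 5 in all high-dose forestomachs but mouse 20. Mouse 20 had the highest Ccl8 of all arrays (4.25) and the highest Clec4n of the high-dose forestomachs (2.43), but their lowest Cd74 (0.9). Vehicle mouse 1, with the highest glandular level (6.04), had the highest vehicle forestomach Ctsh (3.26), Clec4n (1.26), Ctss (-1.67) and Cd74 (0.45), but not Ccl8 (1.01). The part of this tissue in these rises was not tested.

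**Figure D4:**
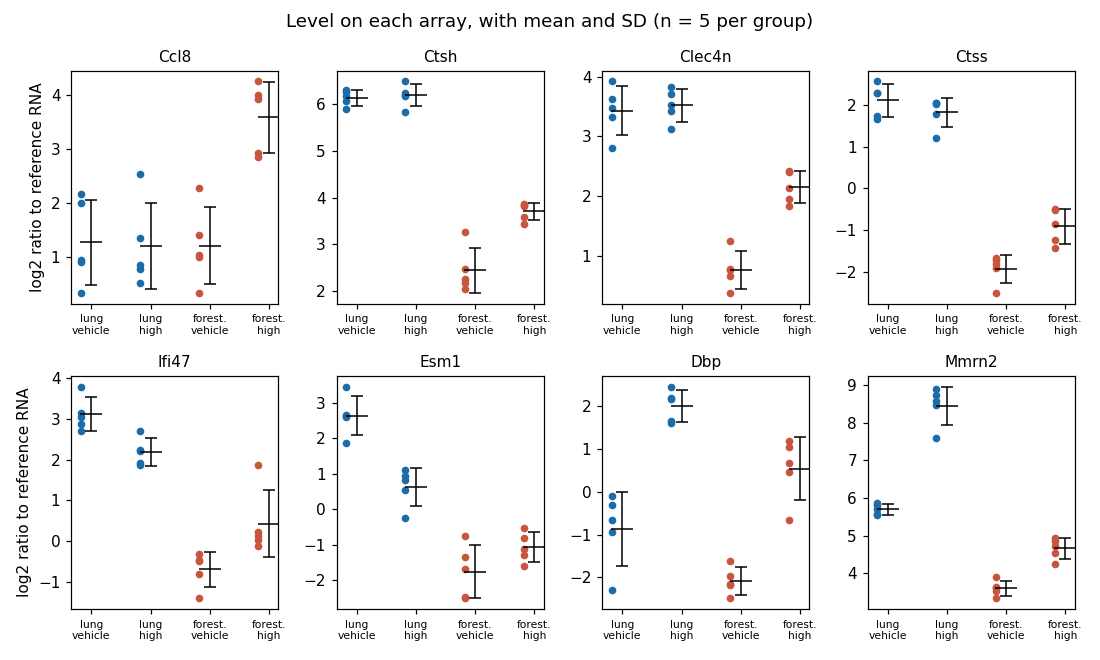
Log2 ratio to the reference on each array (points) with the mean and SD (black) for 8 genes in vehicle and high-dose lung (blue) and forestomach (red), n = 5 per group, each panel on its own y axis. Ccl8, Ctsh, Clec4n and Ctss rise in forestomach and not in lung, Ifi47 and Esm1 have lower lung and higher forestomach means at the high dose, and Dbp and Mmrn2 rise in both tissues.

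Among the other genes of the forestomach response, Gm21944, a predicted gene, rose by 1.48 ± 0.17 beside 0.03 ± 0.17 in lung. The imprinted long noncoding RNA Meg3 fell in forestomach (-0.95 ± 0.19) beside 0.28 ± 0.19 in lung. Its difference of 1.23 ± 0.27 lost its call without any of mice 1, 3, 5, 16, 17, 18, 19 and 20, under median centring (0.9) and in the fit of all doses, and its other probes gave 0.52 and 0.5. Pgbd5, a gene derived from a transposase, rose in forestomach by 1.73 ± 0.16, where it measured 1.2, 1.37, 1.06, 1.56 and 1.14 on the vehicle arrays and 2.17, 3.13, 3, 3.16 and 3.51 on the high-dose arrays, and was above background on no lung array. The same held for 2300002M23Rik (1.71 ± 0.2), the cornified envelope gene Sprr2k (1.5 ± 0.15), which belongs to a family of close copies, and the carboxylesterase gene Ces2f (1.37 ± 0.13). No lung response can be given for these. The call of the difference of 2300002M23Rik was lost in the fit of all doses (adjusted p = 0.279).

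For some genes called in lung, the probe used was above background on no forestomach array. Mmp8, the neutrophil collagenase, rose in lung by 2.19 ± 0.29, from 0.74, 0.76, 1.27, 0.33 and 0.81 on the vehicle arrays and 2.01, 3.18, 1.95, 3.81 and 3.89 on the high-dose arrays. Ddah1, which degrades an inhibitor of nitric oxide synthesis, rose by 1.49 ± 0.15, and Cstdc4, a stefin gene, by 1.37 ± 0.19; Cstdc4 lost its call of the difference without mouse 17 or 19 and under median centring. Slc5a12, a lactate transporter, was measured on all vehicle lungs and on no high-dose lung, a fall of at least 2.4-fold; vehicle mouse 5 lay at 3.25 above 1.14 to 1.57 in the other vehicle lungs, and the call of the difference was lost without mouse 3, 16, 17, 18, 19 or 20, under median centring and with mouse as a fixed block. Its other probe gave a difference of -1.21 that did not pass. The other probe of Ddah1 was above background on 4 of 5 vehicle and 1 of 5 high-dose forestomach arrays, with effects of 1.07 in lung and -0.85 in forestomach and a called difference of 1.92, so that Ddah1 was detected in both tissues.

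Cell types of the lung gave few differences. Of 10 B-cell genes 3 rose in lung, among them Cr2, a complement receptor, and Fcrla, an Fc receptor-like protein (0.68 and 0.69). Lung effects were above 0 for 9 of the 10, and the list median was 0.47 in lung and 0.02 in forestomach. No gene of the list was called in forestomach, 7 of 10 were not above background on every array of a group in both tissues, and no difference passed by the brightest probes. The other Cr2 probe, above background on all lung and no forestomach arrays, gave a called difference of 1.06 (adjusted p = 0.00134). The summed marker level per array, as a mean over the list, was 0.88 to 1.69 in vehicle and 1.46 to 2.13 in high-dose lung. Of 10 T-cell genes 1 rose in lung (Cd3d, 0.65). Of 8 macrophage and neutrophil genes 2 rose in lung, the scavenger receptor Marco (1.3 ± 0.3) and S100a8 (1.2 ± 0.28), without a called difference. Among 13 interferon-stimulated genes Ifi44 fell in lung (-1.01 ± 0.18) beside 0.11 ± 0.18 in forestomach, a difference of -1.12 ± 0.25 (adjusted p = 0.0306). The chemokines Ccl5 and Cxcl5 fell in lung (-1.58 and -1.62) and Ccl19 rose by its brightest probe (0.67), none with a called difference. The other Ccl19 probes gave lung effects of 0.11 and 0.07. Alveolar and airway epithelial genes had no call, and neither did the squamous keratins of the forestomach.

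In the cornified envelope list the difference was called for Ivl and Tgm1. Ivl (involucrin), a structural protein of the squamous envelope, fell in forestomach (-0.92 ± 0.11), and this probe was above background on no lung array. Its other probe, above background on 1 high-dose lung array, gave a difference of 0.72 that did not pass (adjusted p = 0.159). Tgm1, the transglutaminase that cross-links the envelope, rose in lung by 0.6 ± 0.12 and had an effect of -0.25 ± 0.12 in forestomach. Of the lipid synthesis list, Sqle and Lss of the sterol pathway fell in lung (-0.72 and -0.61), beside -0.38 and -0.31 in forestomach, with no called difference; 1 of its 14 genes lay above 0 in each tissue. Fatty acid oxidation and immediate early genes gave no call.

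Clock genes were among the genes that changed in both tissues. The labels give no time of day for tissue collection, and its part in the clock gene values was not tested. Both tissues came from the same mice, so that they are not independent. In all, 14 genes were called in both tissues in the same direction, 12 up and 2 down, and for 13 of them the difference was not called. Dbp, a transcription factor of the clock output, measured -0.67, -2.29, -0.32, -0.09 and -0.95 on the vehicle arrays and 1.59, 2.15, 2.45, 2.19 and 1.65 on the high-dose arrays in lung and -1.96, -2.49, -2.15, -2.18 and -1.62 on the vehicle arrays and -0.67, 1.04, 1.18, 0.66 and 0.46 on the high-dose arrays in forestomach, without overlap in either tissue. The effects were 2.87 ± 0.35 and 2.62 ± 0.35, and the difference 0.25 ± 0.49 had a 95% interval of -0.76 to 1.27, which leaves room for unequal effects. Nr1d2 (Rev-erb beta) rose by 0.94 ± 0.22 and 1.28 ± 0.22, and Tef by 0.91 ± 0.16 and 1.14 ± 0.16. Arntl, the positive arm of the clock, fell in both (-1.75 ± 0.16 and -0.93 ± 0.16), as did Nfil3, a repressor at the sites Dbp binds (-1.18 ± 0.17 and -0.9 ± 0.17). Of 11 clock output genes 7 rose in lung and 3 in forestomach, of 6 positive-arm genes 2 fell in each, and the difference was called for Per2 alone: 1.16 ± 0.13 in lung and 0.4 ± 0.13 in forestomach, where it was above background on no vehicle array and at least 1.29-fold higher at the high dose.

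Outside the clock, Ddit4l, an inhibitor of mTOR signalling, rose in both tissues (1.39 ± 0.18 and 1.03 ± 0.18). The stefins Stfa1 and Stfa2l1, protease inhibitors abundant in neutrophils and squamous epithelium, rose in lung by 1.56 ± 0.45 and 1.45 ± 0.37 and in forestomach by 2.8 ± 0.45 and 1.74 ± 0.37. These 2 genes belong to a family of close copies. Among other settings, Stfa1 lost its lung call without any of mice 1, 2, 3, 4, 5, 17 and 19, and Stfa2l1 its lung call without mouse 1, 2, 17, 19 or 20 and its forestomach call without mouse 2, 3, 5, 16, 17, 18, 19 or 20. Sulf2, Pqlc3, Rab42 and Bfsp1 rose in both tissues by 0.59 to 0.9. Over the 17311 genes measured in both tissues the lung and forestomach effects correlated with r = 0.22, a description across genes of the same mice, which are not independent replicates.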

How the data were processed

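Lung and forestomach RNA of vehicle and high-dose mice was hybridised in Cy5 against a universal mouse reference RNA in Cy3 on Agilent mouse arrays, without dye swaps. The authors scanned the arrays and deposited spot intensity values from Feature Extraction 10.7.3.1, and their own LOWESS-normalized log2 ratios, also deposited, served as an alternative (correlation with the values used here 0.9952 to 0.9992 per array). The intensities were used without background correction, as in the study's methods. Control spots had weight 0 in the loess, spots flagged as non-uniform were dropped (318 missing probe values over 39 lung and forestomach arrays), and spots of a probe were averaged. No array was left out.

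The difference of effects was tested with limma 3.58.1 in R 4.3.3 over 55681 probes, 1 fit of 4 groups, with Benjamini-Hochberg adjustment. The study used the Fs statistic of MAANOVA with the same thresholds, which was not at hand. A simulation over 55498 probes recovered 91% of differences of 1 and 99% of differences of 2 on the log2 scale. It drew normal noise with 1 spread per probe for all 4 groups and placed the differences in high-dose lung alone. It does not cover genes whose spread grew at the high dose, such as Ahrr (SD 0.17 in vehicle and 1.27 in high-dose lung). A gene was represented by its probe with the highest mean Cy5 signal, and 20018 symbols were matched to RefSeq. The array names and promoter stretches come from different builds, and no array coordinate was used.

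The members and lists were chosen with earlier results of these data known. Named genes were, among called genes measured in both tissues and without overlap of the per-mouse differences, the largest differences: 8 that rose and 8 that fell in lung, 6 called in forestomach alone and 6 of opposite effect, with 4 measured in lung alone, 4 in forestomach alone and 6 called in both tissues. The 35 gene lists held 9 genes without a matched probe. The mouse number in the labels marks the same animal in both tissues, which is where the pairing comes from. Deviations of the 2 tissues of a mouse from their group means correlated between -0.04 and 0.09. Each mouse is 1 replicate. Some genes are not reported here.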

Additional observations from a re-analysis of the deposited data

Results flagged for a closer look

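In 13 of 164 gene and group pairs (41 genes, 4 groups of 5 arrays) the highest or lowest array stood apart by a Dixon test, which chance alone does in about 5% of groups. Log2 ratios that stood apart were Uchl1 at 0.62 in high-dose forestomach of mouse 20 (nearest 1.31), Ahrr at -0.14 in vehicle lung of mouse 2 (nearest -0.46), Car14 at 2.11 in vehicle lung of mouse 3 (nearest 2.6), Klra16 at 0.61 in vehicle lung of mouse 4 (nearest -0.58) and Ednrb at 2.67 in vehicle forestomach of mouse 5 (nearest 1.85). Others were Gm21944 at 2.34 in high-dose forestomach of mouse 20 (nearest 1.59), Ctss at -2.51 in vehicle forestomach of mouse 2 (nearest -1.91), Meg3 at -1.14 in vehicle lung of mouse 5 (nearest -0.8) and Ifi47 at 1.88 in high-dose forestomach of mouse 19 (nearest 0.22). The last were Serp2 at -0.4 in vehicle lung of mouse 3 (nearest -0.62), Slc5a12 at 3.25 in vehicle lung of mouse 5 (nearest 1.57), Cyp1a1 at 8.39 in vehicle lung of mouse 2 (nearest 2.97) and Cyp1b1 at 0.21 in vehicle lung of mouse 2 (nearest -1.28). Mouse 2 thus stood apart in vehicle lung for Ahrr, Cyp1a1 and Cyp1b1.

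The high-dose effect differed between the tissues, by the limma test of the difference itself, for 401 genes. Among the named genes the difference of log2 effects was above 0, higher in lung, for Uchl1 (2.85), Gdf15 (2.84), Ackr3 (2.71), Ahrr (2.7), Cd34 (2.61), Cdkn1a (2.6), Sema3c (2.36), H1f2 (2.33), Meg3 (1.23), Serp2 (2.03), Slc36a2 (1.78), Mmp8 (2.16), Ddah1 (1.76), Cstdc4 (1.31) and Mmrn2 (1.69). It was below 0 for Gpihbp1 (-3.46), Esm1 (-2.71), Klra4 (-2.49), Car14 (-2.11), Klra16 (-2.08), Ednrb (-1.94), Cx3cl1 (-1.7), Fibin (-1.68), Ccl8 (-2.43), Gm21944 (-1.45), Ctss (-1.31), Clec4n (-1.29), Ctsh (-1.22), Ifi47 (-2.05), Slc5a12 (-1.65), Pgbd5 (-1.66), 2300002M23Rik (-1.75), Sprr2k (-1.68) and Ces2f (-1.29). For Mmp8, Ddah1, Slc5a12 and Cstdc4 the probe used was above background on no forestomach array, and for Pgbd5, 2300002M23Rik, Sprr2k and Ces2f on no lung array, so that their differences rest on a tissue without a measured level by that probe and are not exact sizes. The high-dose lungs were also not above background for Slc5a12.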

How the results depend on the processing

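All 401 genes kept the direction of their difference in every setting in which they had a value. Each setting refitted the arrays from which these genes were called, so that a kept direction was close to fixed by their choice. Median centring in place of loess gave 243 genes whose effect differed, 36 of them higher in forestomach, with 2995 genes changed in lung and 510 in forestomach. It shifted the median of all genes by 0.05 in lung and 0.04 in forestomach. With slide as a block 212 genes changed in forestomach. At a 2-fold threshold 146 genes differed, 90 higher in lung and 56 higher in forestomach, and 158 changed in lung and 38 in forestomach. With 1 mouse at a time removed from both tissues there were 226 to 387 genes that differed, 151 to 254 higher in lung, 75 to 160 higher in forestomach, 507 to 731 changed in lung and 76 to 169 changed in forestomach. The lowest of each came without high-dose mouse 17, and without high-dose mouse 19 the counts were 267 that differed, 91 higher in forestomach and 81 changed in forestomach. With mouse as a fixed block, the pairing of both tissues, 381 genes differed, 320 of them shared. The block changed the call of Slc5a12, lost, and of Cyp1b1, gained (adjusted p = 0.0139), among the named and AhR genes. The dose effect within a tissue lies between mice, so that no paired value exists for it. The cause of these changes was not tested. The number of arrays and the dim probes of genes above background in 1 tissue limit the precision.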

Other observations

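The lower doses give values beside these, from 1 fit of all doses in which the low (25 mg/kg body weight per day), medium (50) and high (100) groups share the vehicle arrays, so that the comparisons are not independent. The difference of effects was called higher in lung for 88, 59 and 223 genes in order of dose, and higher in forestomach for 0, 7 and 115. Cdkn1a had a difference of 1.29, 1.66 and 2.6 at the low, medium and high dose, and Gdf15 one of 2.39, 1.96 and 2.84. Gpihbp1 differed by -0.23, -0.62 and -3.46 and Uchl1 by 0.27, 1 and 2.85, with calls for both at the high dose alone. Dbp had lung effects of 2.22, 2.52 and 2.87 and forestomach effects of 1.14, 1.83 and 2.62.

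Some genes outside the naming rule were picked after their values were seen. Gzma, a granzyme of cytotoxic lymphocytes, fell in lung (-2.69 ± 0.44) beside -0.04 ± 0.44 in forestomach, where it was above background on 2 of 5 arrays in each group (difference -2.65 ± 0.63, adjusted p = 0.0405). Cx3cr1, the receptor of the chemokine Cx3cl1, had effects of -1 ± 0.26 and 0.68 ± 0.26 in lung and forestomach. Nos3, endothelial nitric oxide synthase, had effects of 1.11 ± 0.15 and -0.39 ± 0.15. Arg1, an arginase, had effects of 0.24 ± 0.27 in lung and 1.79 ± 0.27 in forestomach (difference -1.56 ± 0.38, adjusted p = 0.0495). It was above background on 2 of 5 vehicle and 4 of 5 high-dose lungs, and its cell of origin was not tested. The difference of each was called by limma.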
